A study of Mus musculus with 66 samples.

Results

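Progenitors carrying the genotype label MUT were compared between 3 ventral spinal cord populations at day 5 of differentiation: p1, p2 and pM. The members are 9 of the 66 libraries of the series, 3 replicates for each population, chosen by their labels for genotype, day and domain. Mouse embryonic stem (ES) cells were plated with 10 ng/ml bFGF, given 5 µM of the GSK3 inhibitor CHIR99021 on day 2, and moved on day 3 to 100 nM retinoic acid (RA) with 10 nM SAG, an agonist of the hedgehog transducer Smoothened. From day 5 SAG was kept and RA was left out. Cells were fixed with glyoxal, stained and sorted, and each population of 10000 to 15000 cells gave polyadenylated RNA. All 9 libraries carry the gate label NFIAn, read here as negative for the factor NFIA. The WT libraries set beside them (day 5, NFIAn: 3 of p1, 3 of p2 and 2 of pM) and the MUT libraries of day 7 (NFIAn, 3 of each domain) came through the same culture and gate labels. Which gene is mutated, the strain and the number of lines are not stated in the labels. Nor is it stated that replicates are separate cultures, and every p-value here therefore reflects library-to-library spread, which may be technical. The series' design text writes the populations as p0-p1, p2 and pMN.

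In the neural tube, Sonic hedgehog from the notochord and floor plate sets up stripes of progenitors, each marked by its own mix of homeodomain and basic helix-loop-helix (bHLH) factors that repress their neighbours' factors. The p0 and p1 domains express Dbx factors and make ventral interneurons, the p2 domain lies below them and makes V2 interneurons, and the pMN domain expresses Olig2 and makes motor neurons before it turns to oligodendrocytes. Within each stripe, proneural bHLH factors raise Notch ligands in cells about to leave the cycle, and Notch signalling keeps their neighbours as progenitors.

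Values are normalised read counts, and log2 differences are on the log2(value + 1) scale with the standard error (SE) of a limma fit over the 9 libraries that has a term for replicate number. Adjusted p-values are from limma with Benjamini-Hochberg adjustment over 13597 genes, and a gene under 0.05 is called. The p2 replicate 2 library held 8.74 M reads and the other 8 held 22.0 to 27.2 M, so that 1 read was worth 2.50 normalised counts in the former and 0.730 to 0.911 in the latter. The leading principal component (28.2% of variance) placed p1 libraries from -54.7 to -43.0, p2 from -19.4 to 13.9 and pM from 44.7 to 58.0. The next component (17.8%) placed p2 replicate 2 at -91.8 and the others between -4.80 and 30.0. Domain accounted for 39.6% of the sum of squares and replicate number for 25.7%, on 2 degrees of freedom each, with 34.7% left on 4. A term with no effect also takes a share in proportion to its degrees of freedom, so these shares are descriptions. In an F test, 1898 genes (14% of those tested) were called for replicate number. Replicates of a domain were not copies of one another, with a chi-square per degree of freedom of 33.9 to 71.4.

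The ends of the series of domains differed most. Between pM and p1, 2072 genes were called (15.2%), with 958 higher in pM (7.05%) and 1114 lower (8.19%). Of these, 724 differed at least 2-fold and 343 at least 4-fold. With TMM scaling of the same values the split was 1128 higher and 865 lower, so the excess of lower genes depends on the scaling. The median over all genes moved by 0.05 (log2) between these scalings. On the deposited values the median difference was 0.91 for the higher genes and -0.56 for the lower. Ribosomal-protein genes such as Rpl11 (-0.51) and Rps14 (-0.54) were among the lower genes. Ribosomal-protein genes held 8.62, 10.9 and 9.11% of normalised counts in p1, 8.18, 9.03 and 8.28% in p2, and 7.05, 9.43 and 7.01% in pM. Between p2 and p1, 431 genes were called (3.17%), 237 higher in p2 (1.74%) and 194 lower (1.43%). Between pM and p2, 153 were called (1.13%), 104 higher in pM (0.765%) and 49 lower (0.36%). These shares are the background for the gene lists below. Without p2 replicate 2 the counts were 1234 for p2 against p1, 3046 for pM against p1 and 2608 for the F test over the 3 domains, which called 1456 genes (10.7%) in all 9 libraries. In 1181 of those 1456 genes (81.1%) the p2 mean lay between the p1 and pM means, against 6495 of the 13597 tested genes (47.8%). The F test chose the 1456 genes on these same means, so the larger share is a description. Whatever the test, all 3 p2 libraries lay above all 3 p1 libraries in 6.96% of the tested genes and below them in 7.92%. For pM against p2 these shares were 5.95% and 5.32%, and for pM against p1 11.8% and 13.7%. With 3 libraries on each side, full separation also arises in genes with no true difference. A lack of overlap is therefore a description of the values and no evidence by itself. The p2 mean was the highest of the 3 in 133 called genes and the lowest in 142.

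The proteins stained for the gates are not given in the sources used here. The RNAs of the domain factors are therefore a description and no separate check of the populations. A factor that was stained for the gate would be separated by the sort itself. Dbx1, a homeodomain factor of p0 and p1 progenitors, had 4252, 4935 and 4192 normalised counts in the p1 libraries, 679, 553 and 372 in p2, and 169, 187 and 138 in pM. No library overlapped between domains, and the log2 difference of Dbx1 was -3.10 ± 0.16 for p2 minus p1 (adjusted p = 1.6e-06) and -1.66 ± 0.16 for pM minus p2 (adjusted p = 0.00034). Its relative Dbx2, which spans several intermediate domains, had 878, 766 and 517 in p1, 613, 383 and 304 in p2, and 337, 285 and 274 in pM. The p1 and p2 libraries of Dbx2 overlapped, while pM against p1 gave -1.24 ± 0.18 (adjusted p = 0.00079). Prdm13, a PR-domain factor of neural progenitors, had 84.7, 121 and 144 in p1 and at most 21.0 in every other library (pM minus p1 -4.73 ± 0.85, adjusted p = 0.0033). Nkx6-2, a homeodomain repressor present in p1, had 165, 267 and 356 in p1, 63.6, 233 and 181 in p2, and 67.8, 179 and 331 in pM. Its libraries overlapped across all 3 domains and no contrast was called. Of the 14 genes listed for p0 and p1, 8 were tested, 4 were called lower in pM than in p1 (Dbx1, Dbx2, Prdm13 and the Wnt inhibitor Frzb) and 2 higher (Sp8 and Lhx5), with a list median of -0.95 against -0.04 over all genes.

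Nkx6-1, the homeodomain factor found from p2 downward, separated p1 from both other domains. It had 4.89, 8.92 and 14.2 normalised counts in p1, 173, 208 and 465 in p2, and 211, 353 and 654 in pM. The p2 and pM ranges overlapped: p2 exceeded p1 by 4.74 ± 0.30 (adjusted p = 1e-05), whereas pM minus p2 was 0.51 ± 0.30 (adjusted p = 0.52). Within p2 and within pM the replicate 3 library was the highest. Vsx1, a homeodomain factor of V2 precursors, had 3.26, 0.892 and 0 in p1, 40.1, 97.6 and 148 in p2, and 15.2, 12.8 and 42.3 in pM. It was 5.40 ± 0.81 higher in p2 than in p1 (adjusted p = 0.0039), and its p2 and pM libraries overlapped slightly (pM minus p2 -1.99 ± 0.81, adjusted p = 0.32). Foxn4, the forkhead factor that starts V2 specification, had 0.815, 5.35 and 0 in p1, 10.0, 27.5 and 127 in p2, and 74.9, 52.8 and 21.9 in pM. The p2 values thus ranged widely and overlapped those of pM (pM minus p2 0.41 ± 0.97, adjusted p = 0.90). The Foxn4 call for p2 against p1 (3.92 ± 0.97, adjusted p = 0.049) was lost in edgeR, with an adjusted p of 0.080. Of the 12 genes listed for p2, 9 were tested: Vsx1, Foxn4, Dll4 and Lhx3 were called higher in p2 than in p1, and of these Lhx3 was also called higher in pM than in p2. No listed p2 gene was called lower in pM than in p2. Bhlhe22, a bHLH factor, was lower in pM than in p1 (-2.93 ± 0.86, adjusted p = 0.039), and Gata3, Tal1 and Lmo4 were called in no contrast.

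Olig2, the bHLH factor that defines pMN, had 0.815, 11.6 and 32.6 normalised counts in p1, 35.1, 32.5 and 173 in p2, and 1269, 1896 and 2472 in pM. Every pM library was above every other library, with pM minus p2 at 4.93 ± 0.54 (adjusted p = 0.0008) and pM minus p1 at 7.63 ± 0.54 (adjusted p = 2.7e-06). The replicate 3 library was the highest for Olig2 in all 3 domains. Olig1, its neighbour and relative, had 7.33, 1.78 and 0.835 in p1, 18.4, 0 and 26.9 in p2, and 447, 442 and 587 in pM (pM minus p2 5.91 ± 0.90, adjusted p = 0.0059). Neurog2, the proneural bHLH factor of motor neuron progenitors, rose in steps: 389, 321 and 497 in p1, 970, 1099 and 1212 in p2, and 5484, 4241 and 5059 in pM. Its steps were 1.46 ± 0.14 from p1 to p2 (adjusted p = 0.00019) and 2.17 ± 0.14 from p2 to pM (adjusted p = 1.4e-05). Of the 8 genes listed for pM, 7 were called higher in pM than in p1 (median 3.67), and the exception was Fgf15, a fibroblast growth factor, which was lower (-1.06 ± 0.13, adjusted p = 0.00025). Ppp1r14a, an inhibitor of myosin phosphatase, had 62.7, 56.2 and 81.0 in p1 against 446, 605 and 649 in pM.

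**Figure D1:**
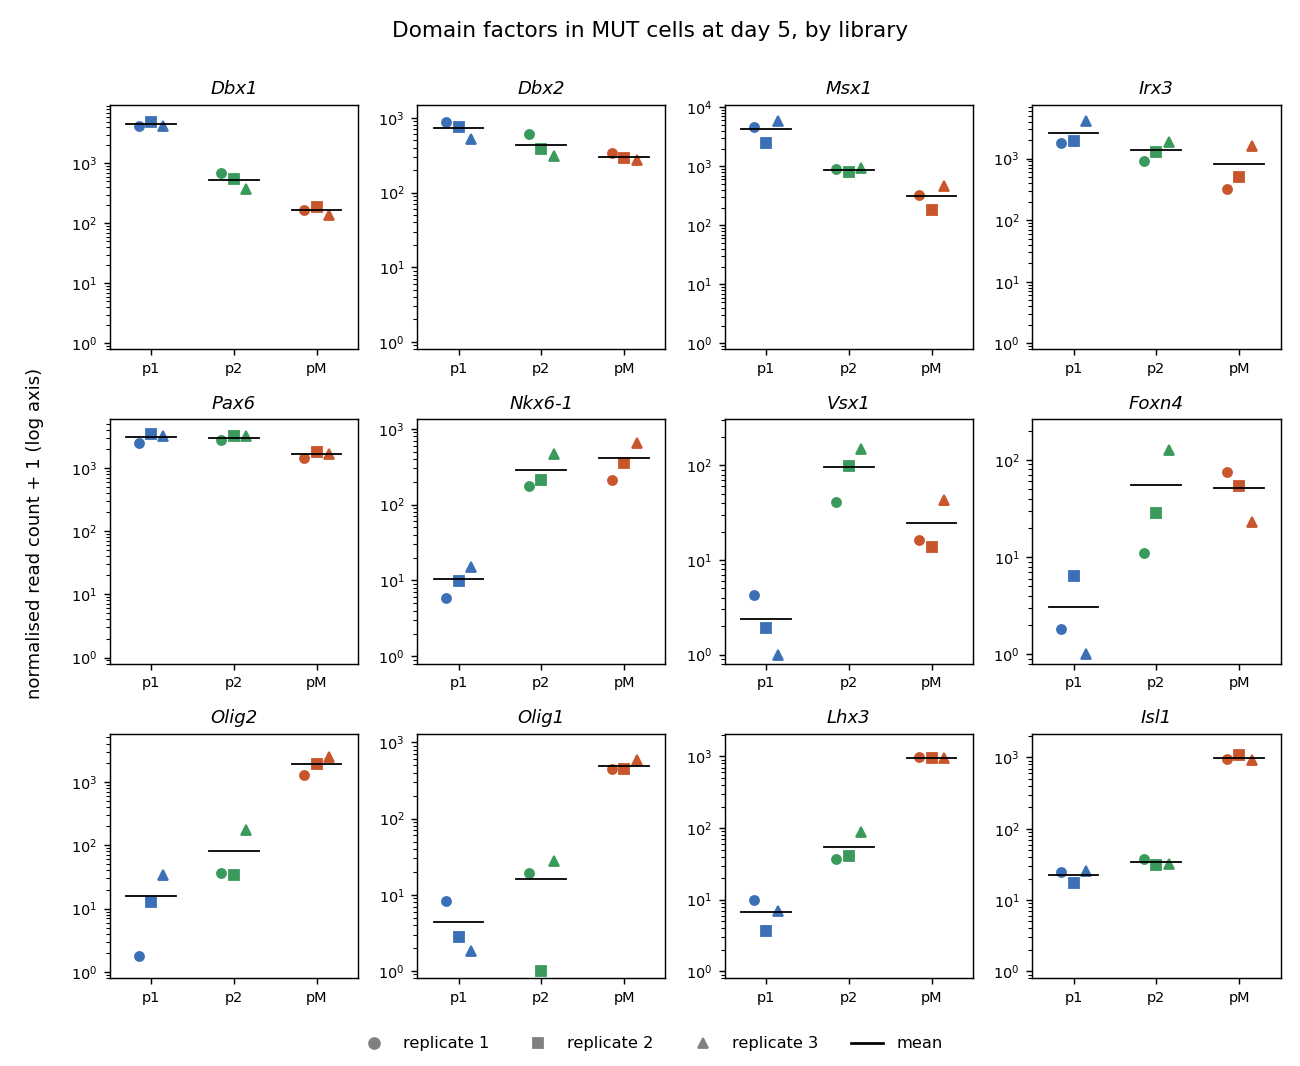
Normalised read count + 1 (log axis) of 12 domain genes in the 9 MUT day 5 libraries, by domain, with 1 marker shape for each replicate number and a bar at the mean. Dbx1 falls from p1 to pM, Nkx6-1 separates p1 from p2 and pM, Olig2, Olig1 and Isl1 stand out in pM, and the p2 and pM points of Foxn4 overlap.

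Among the broadly expressed patterning factors, Pax6, a paired-domain factor that is lower in ventral progenitors, was split between pM and the rest. It had 2487, 3472 and 3155 in p1, 2723, 3169 and 3134 in p2, and 1450, 1788 and 1678 in pM. The p1 and p2 libraries overlapped (-0.00 ± 0.09), and pM minus p2 was -0.88 ± 0.09 (adjusted p = 0.00073). Irx3, a homeodomain factor with a ventral limit at the pMN border, had 1761, 1942 and 4103 in p1, 905, 1299 and 1870 in p2, and 322, 496 and 1595 in pM. Replicate 3 was high in each domain, so the ranges overlapped, yet with replicate number in the fit Irx3 fell from p1 to p2 (-0.89 ± 0.20, adjusted p = 0.034) and from p2 to pM (-1.04 ± 0.20, adjusted p = 0.031). The pM against p2 call of Irx3 was lost without p2 replicate 2 (adjusted p = 0.077). Irx5 fell between p1 and pM (-0.96 ± 0.22, adjusted p = 0.012). The SoxB1 progenitor factors Sox1 and Sox2 were called in no contrast, and Sox3 was higher in pM than in p1 (1.08 ± 0.33, adjusted p = 0.045). Of 10 tested genes in this list, 3 were lower and 2 higher in pM than in p1.

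Of 19 tested genes of the hedgehog pathway, 3 were higher and 6 lower in pM than in p1, 1 was higher and 1 lower in p2 than in p1, and 1 was lower in pM than in p2. Ptch1, the receptor that the signal induces, had 17.1, 34.8 and 48.4 in p1 and 157, 151 and 89.8 in pM (2.03 ± 0.46, adjusted p = 0.011), without overlap. Gli1, the target transcription factor, was also higher in pM than in p1, by 1.10 ± 0.25 (adjusted p = 0.012). Hhip, which binds and sequesters the ligand, was called only between p2 and p1 (1.22 ± 0.21, adjusted p = 0.011), with 430, 601 and 865 in p2. The co-receptors Gas1 (-1.34 ± 0.18, adjusted p = 0.00052), Cdon (-1.92 ± 0.30, adjusted p = 0.0015), Boc (-0.73 ± 0.13, adjusted p = 0.0037) and Lrp2 (-1.38 ± 0.23, adjusted p = 0.0021) were lower in pM than in p1. Scube2, which helps release the ligand, fell between p2 and pM (-1.13 ± 0.18, adjusted p = 0.0072), and Gli3, the main source of Gli repressor, between p1 and pM (-0.57 ± 0.12, adjusted p = 0.0088). Shh itself was at 0 in 8 of the 9 libraries and reached 2.52 in p2 replicate 3.

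Genes of the dorsal neural tube were highest in the p1 libraries. Msx1, a homeodomain factor induced by BMP in dorsal progenitors, had 4645, 2484 and 5766 in p1, 909, 799 and 943 in p2, and 322, 180.4 and 456 in pM. No domains overlapped (p2 minus p1 -2.20 ± 0.18, adjusted p = 6.1e-05). Pax3, a paired factor of dorsal progenitors, had 534, 431 and 563 in p1, 123, 195 and 186 in p2, and 47.3, 29.2 and 64.9 in pM, and was lower at each step (-1.61 ± 0.30, adjusted p = 0.014; -1.86 ± 0.30, adjusted p = 0.0086). The roof plate ligand Wnt3a had 252, 206 and 270 in p1, 22.6, 70.1 and 19.3 in p2, and at most 6.57 in pM. Of the 15 dorsal genes tested, 7 were called lower in p2 than in p1 and 11 lower in pM than in p1, and none was higher in either contrast. The median of pM minus p1 was -3.47, or -2.83 when Zic4, which was at 0 in all pM libraries, is set at a floor of 3 reads. The summed level of the 18 listed genes was 4099.5 to 8293 in p1, 1302 to 1571 in p2 and 498 to 760 in pM. Pax7 stayed at or under 23.2 in every library. In sorted bulk RNA, fewer cells of a type and less RNA per cell cannot be told apart.

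Markers of endoderm and pluripotent cells had their highest summed levels in the p1 libraries, while those of mesoderm, neural crest and endothelium did not. Of 13 tested pluripotency genes, 1 was lower in p2 than in p1 and 2 were lower in pM than in p1 (Dppa5a and Zfp42). Over all tested genes, 1.43% and 8.19% were lower in these contrasts. Dppa5a, an RNA-binding protein of pluripotent cells, had 558, 452 and 386 in p1 and 25.9 to 88.4 in the other 6 libraries (p2 minus p1 -2.87 ± 0.36, adjusted p = 0.0015). The core pluripotency factors were low: Pou5f1 reached 56.2 and Nanog 17.0 at most, both in p1. Sox17, an endoderm factor, had 215, 87.5 and 124 in p1 and at most 27.7 elsewhere (p2 minus p1 -3.21 ± 0.65, adjusted p = 0.022). Tfap2c, a factor of surface ectoderm and neural crest, had 197, 152 and 255 in p1 and 12.5 to 42.9 elsewhere (-2.75 ± 0.43, adjusted p = 0.0048). The 13 endoderm genes summed to 342 to 560 in p1, 149.7 to 205 in p2 and 85.6 to 157 in pM, and of 9 tested, 1 was lower in p2 than in p1 and 3 in pM than in p1. The 15 pluripotency genes summed to 1195 to 1252 in p1, 631 to 729 in p2 and 575 to 897 in pM. Of 17 tested genes of mesoderm and mesenchyme, 1 was higher and 1 lower in p2 than in p1 (median -0.04), and 6 were lower in pM than in p1. Among these 6 was Twist1, a bHLH factor of mesenchyme (-2.04 ± 0.32, adjusted p = 0.0015). The mesoderm and mesenchyme sums overlapped, at 1788 to 2760 in p1, 2128 to 2852 in p2 and 1403 to 2053 in pM. Of 8 neural crest genes tested, 1 was lower in p2 than in p1, with a median of 0.18, and 1 was higher and 3 lower in pM than in p1. The 3 lower genes were Tfap2c (-3.45), Tfap2b (-3.06) and Ednrb (-0.80), and the higher one was Ret (2.24). The neural crest sums were 2695 to 3220 in p1, 2927 to 3369 in p2 and 2239 to 2562 in pM. Most of each p2 sum came from Ednrb, so the sum mainly follows this gene and not the list as a whole. Endothelial and blood genes, none of 6 called, summed to 148 to 170 in p1, 153 to 215 in p2 and 93.8 to 217 in pM. The part that such cells have in the p1 differences was not tested.

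Neurogenic genes were higher at each step towards pM. Of 20 tested, 11 were higher in p2 than in p1, 9 in pM than in p2 and 16 in pM than in p1, none was lower, and the medians were 1.34, 1.00 and 2.49. Gadd45g, a stress-family protein expressed as cells leave the cycle, had 819.6, 965 and 1125 in p1, 2497, 4509 and 5920 in p2, and 9892, 10597 and 13860 in pM. Its steps, without overlap, were 2.07 ± 0.14 (adjusted p = 1.3e-05) and 1.48 ± 0.14 (adjusted p = 0.00034). Neurod4, a bHLH factor downstream of Neurog2, had 47.3, 58.9 and 40.1 in p1, 637, 921 and 1607 in p2, and 5297, 5652 and 3125 in pM. Its p2 libraries were already well above p1 (4.32 ± 0.30, adjusted p = 1.3e-05), and pM was higher again (2.21 ± 0.30, adjusted p = 0.0025). Btg2, an antiproliferative marker of neurogenic divisions, rose by 1.07 ± 0.12 (adjusted p = 0.00053) and 1.01 ± 0.12 (adjusted p = 0.0011). Nhlh1, a bHLH factor of young neurons, had 5.84 to 7.33 in p1, 37.6 to 251 in p2 and 339 to 580 in pM. St18, a zinc finger factor of young neurons, was at most 3.36 in p1 and p2 and 50.4 to 99.3 in pM (pM minus p2 4.76 ± 0.87, adjusted p = 0.020).

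Of 21 Notch genes tested, 5 were higher in p2 than in p1, 2 in pM than in p2 and 10 in pM than in p1, and none was lower in any of the 3. The ligand Dll1 had 607, 534 and 529 in p1, 2093, 1943 and 3428 in p2, and 5094, 3301 and 4014 in pM. Dll1 rose from p1 to p2 (2.11 ± 0.17, adjusted p = 6.1e-05), and its p2 and pM libraries overlapped (0.76 ± 0.17, adjusted p = 0.061). Dll3, a ligand that acts within the cell, was separated between p2 and pM instead: 31.8, 113 and 171 against 301, 581 and 1820 (2.99 ± 0.33, adjusted p = 0.0008). Dll4, a ligand listed with p2, had 4.07, 27.7 and 1.67 in p1, 71.1, 168 and 194 in p2, and 558, 526 and 453 in pM, so pM held its highest values although pM minus p2 did not pass (1.94 ± 0.60, adjusted p = 0.17). Mfng, a glycosyltransferase that modifies Notch, rose at both steps (1.80 ± 0.19, adjusted p = 0.00042; 1.60 ± 0.19, adjusted p = 0.0011). The receptor Notch1 rose from 516, 701 and 551 in p1 to 927, 1282 and 1621 in p2 (1.09 ± 0.16, adjusted p = 0.0032). The effector Hes5, which holds cells as progenitors, had 6373, 5849 and 6677 in p1, 11930, 8184 and 13110 in p2, and 13528, 11428 and 18399 in pM, and its difference was called between p1 and p2 (0.79 ± 0.11, adjusted p = 0.0023) but not between p2 and pM (0.38 ± 0.11, adjusted p = 0.13).

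**Figure D2:**
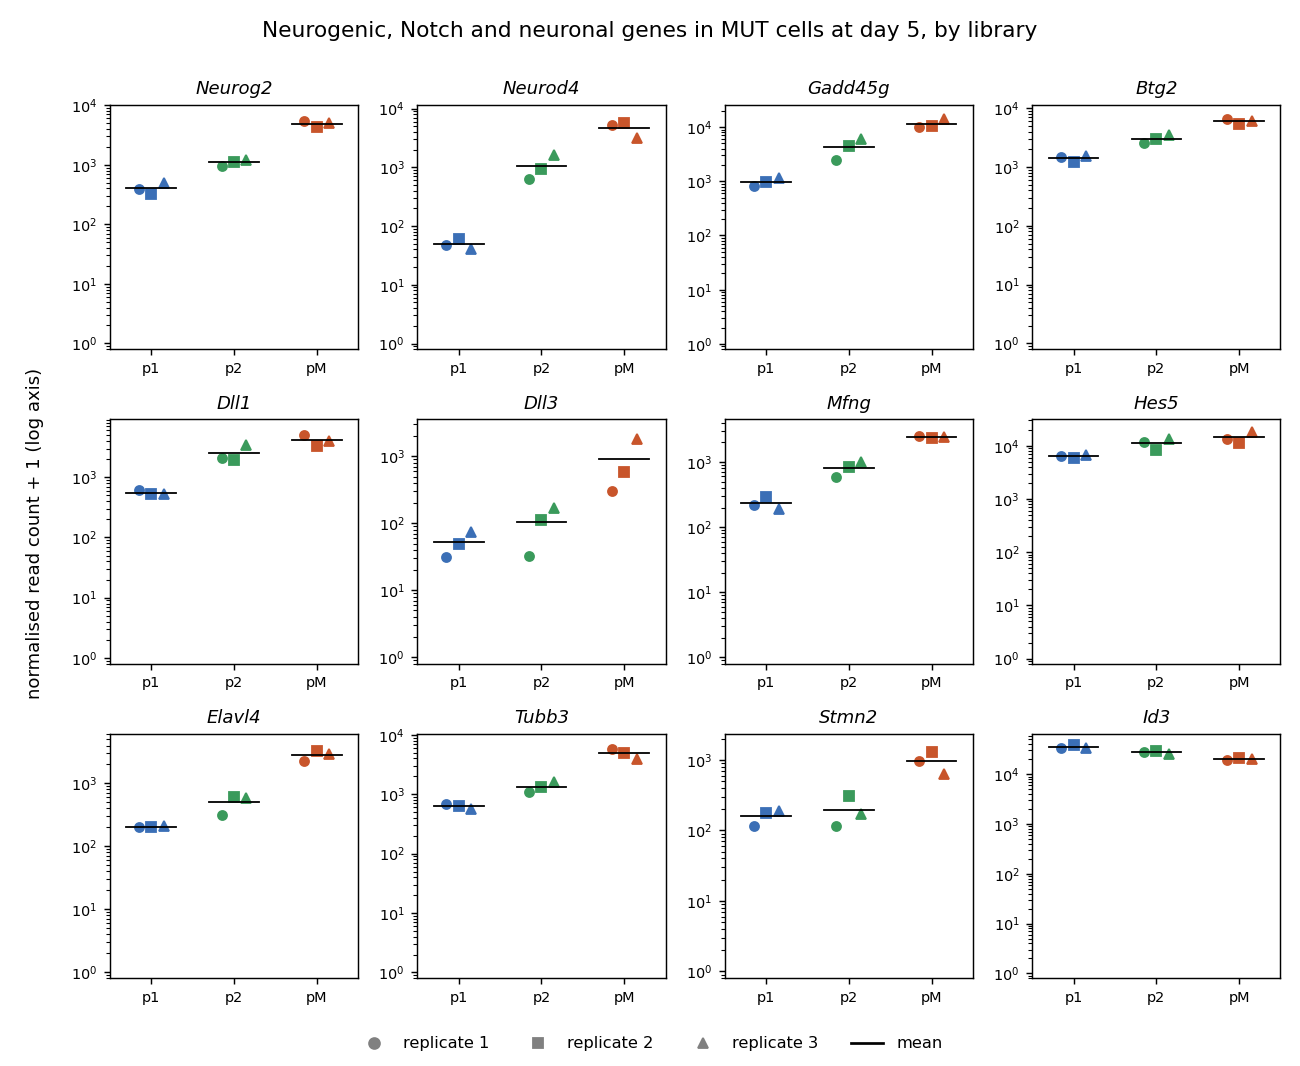
Normalised read count + 1 (log axis) of 12 neurogenic, Notch, neuronal and BMP-response genes in the 9 MUT day 5 libraries, by domain, with 1 marker shape for each replicate number and a bar at the mean. Neurog2, Neurod4, Gadd45g and Btg2 rise from p1 through p2 to pM, Dll3 and Stmn2 separate pM from the rest, and Id3 falls.

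Markers of postmitotic neurons moved with these genes. Tubb3, neuronal tubulin, had 693, 634 and 568 in p1, 1068, 1324 and 1630 in p2, and 5742, 4887 and 3969 in pM, with steps of 1.07 ± 0.17 (adjusted p = 0.0055) and 1.86 ± 0.17 (adjusted p = 0.00025). Elavl4, a neuronal RNA-binding protein, rose by 1.22 ± 0.18 (adjusted p = 0.0037) and 2.55 ± 0.18 (adjusted p = 2.3e-05). Stmn2, a tubulin regulator of growing axons, was called at pM (2.34 ± 0.27 against p2, adjusted p = 0.0011) and not at p2 (0.22 ± 0.27 against p1, adjusted p = 0.70). Of 24 tested, 13 were higher and 1 lower in pM than in p1, and the 26 genes summed to 5668 to 6122 in p1, 5883 to 8032 in p2 and 15137 to 17656 in pM. Motor neuron genes stood out in pM as well. Isl1, a LIM factor of motor neurons, had 23.6, 16.1 and 24.2 in p1, 36.8, 30.0 and 31.1 in p2, and 944, 1083 and 929.7 in pM (pM minus p2 4.88 ± 0.32, adjusted p = 1.4e-05). Lhx3, its partner in motor neurons and a V2 factor, had 8.96 or less in p1, 36.0 to 86.6 in p2 and 937 to 974 in pM. Slc18a3, the vesicular acetylcholine transporter, had 376, 267 and 348 in pM and at most 63.6 elsewhere (pM minus p2 3.08 ± 0.47, adjusted p = 0.0059). Of 13 motor neuron genes tested, 9 were higher in pM than in p1, and Aldh1a2, which makes RA, was lower (-2.61 ± 0.36, adjusted p = 0.00056). Lhx3 is also in the p2 list and Lhx4 and Mnx1 in the pM list, so these counts are not independent. The part of already differentiated neurons in the neurogenic differences was not tested.

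The upstream sequences of genes from these groups are shown because proneural bHLH factors recognise E-boxes, whose common form is CAGCTG (its own reverse complement, so both strands are searched at once). Each runs 5′ to 3′ in the sense of the gene over the 250 bases before the RefSeq start (GRCm38.p6), with CAGCTG in capitals. Gadd45g lies at chr13:51846425-51846674 (+ strand), Isl1 at chr13:116309689-116309938 (- strand) and Vsx1 at chr2:150689138-150689387 (- strand). Olig2 at chr16:91225300-91225549 (+ strand) and Dbx1 at chr7:49636836-49637085 (- strand) hold no match and are shown as the leading genes of pM and p1.
Gadd45g: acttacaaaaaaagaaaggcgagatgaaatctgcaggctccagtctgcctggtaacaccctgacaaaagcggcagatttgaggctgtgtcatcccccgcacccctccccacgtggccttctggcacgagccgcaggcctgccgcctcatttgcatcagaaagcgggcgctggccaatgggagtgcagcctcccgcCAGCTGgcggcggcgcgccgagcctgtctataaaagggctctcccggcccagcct
Isl1: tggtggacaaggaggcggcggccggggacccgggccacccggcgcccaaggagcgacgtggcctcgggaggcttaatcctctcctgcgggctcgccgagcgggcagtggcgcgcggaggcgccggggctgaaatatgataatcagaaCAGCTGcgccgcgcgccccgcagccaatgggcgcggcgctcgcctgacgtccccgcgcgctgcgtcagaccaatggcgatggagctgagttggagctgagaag
Vsx1: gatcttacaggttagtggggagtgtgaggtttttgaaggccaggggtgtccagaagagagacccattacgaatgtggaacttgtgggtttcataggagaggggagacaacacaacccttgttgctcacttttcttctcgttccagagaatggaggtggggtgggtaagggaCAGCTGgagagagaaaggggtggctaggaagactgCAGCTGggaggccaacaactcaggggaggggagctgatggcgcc
Olig2: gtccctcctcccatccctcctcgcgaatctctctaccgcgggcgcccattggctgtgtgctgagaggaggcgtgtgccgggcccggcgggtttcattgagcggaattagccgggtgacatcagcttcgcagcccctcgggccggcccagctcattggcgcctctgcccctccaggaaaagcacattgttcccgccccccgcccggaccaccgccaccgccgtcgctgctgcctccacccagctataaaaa
Dbx1: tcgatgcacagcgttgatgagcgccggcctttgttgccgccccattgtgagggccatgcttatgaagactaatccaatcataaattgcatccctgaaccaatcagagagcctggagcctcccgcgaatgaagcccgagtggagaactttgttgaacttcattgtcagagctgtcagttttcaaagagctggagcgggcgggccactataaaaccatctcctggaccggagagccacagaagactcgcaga
Gadd45g and Isl1 hold 1 match each and Vsx1 holds 2. Of the promoters of all 27025 genes in the table, 12.8% hold CAGCTG in this window, against 11.4% of the 10241 tested genes that matched by symbol. The share was 20.1% (64 of 318) for genes called at least 2-fold higher in pM than in p1, and 11.5% (21 of 183) for those called at least 2-fold lower. For the other E-box form searched on both strands, CAGATG, the shares were 9.62% of tested genes, 11.3% of the higher and 10.9% of the lower genes. Other motifs were searched in the same way. In the same order, TAATTA had 2.09, 3.46 and 3.83%, GTGGGAA 5.52, 6.29 and 7.10%, and TGGGTGGTC 0.19, 0.31 and 0%. These shares are descriptions with no test, and a match is not a bound site.

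Of 16 tested genes of BMP signalling, 7 were lower and 2 higher in pM than in p1. Id3, an inhibitor of bHLH factors that BMP induces, had 33489, 38829 and 33404 in p1, 28443, 29095 and 24945 in p2, and 18906, 21497 and 20098 in pM, falling at both steps (-0.36 ± 0.08, adjusted p = 0.034; -0.45 ± 0.08, adjusted p = 0.021). Id2 fell between p2 and pM (-0.66 ± 0.08, adjusted p = 0.0014). The ligands Bmp4 and Bmp7 were lower in pM than in p1 (-2.83 ± 0.59, adjusted p = 0.0078; -1.46 ± 0.22, adjusted p = 0.0012), while Chrd, the secreted BMP antagonist chordin, had 123, 91.1 and 113 in pM and 13.0 or less in p1 (4.49 ± 0.80, adjusted p = 0.0032). The other higher gene was Id1, also induced by BMP, with 2998, 3364 and 3064 in p1 and 4610, 5412 and 4015 in pM (0.57 ± 0.12, adjusted p = 0.0093). Nog, the antagonist noggin, had 95.3, 68.7 and 213 in p1 and 26.8, 32.8 and 45.2 in pM (-1.68 ± 0.39, adjusted p = 0.013). In the Wnt list, 6 of 29 were higher and 5 lower: Sfrp5, a secreted Wnt inhibitor, fell from 488, 604 and 903 in p1 to 65.1, 78.4 and 144.5 in pM (-2.82 ± 0.23, adjusted p = 1e-05), whereas the receptor Fzd7 was higher in p2 than in p1 (0.97 ± 0.10, adjusted p = 0.00027) with no call between p2 and pM (-0.22 ± 0.10, adjusted p = 0.37).

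Of 17 tested retinoid genes, 3 were higher and 5 lower in pM than in p1, 1 was lower in p2 than in p1, and 1 was higher and 1 lower in pM than in p2. Crabp1, a cytosolic RA-binding protein, had 9068, 11358 and 8759 in p1, 7797, 14968 and 11670.1 in p2, and 27511, 32053 and 24427 in pM, so that pM stood apart and p1 and p2 overlapped (pM minus p2 1.33 ± 0.13, adjusted p = 0.00035). Dhrs3, a retinal reductase that RA induces, was high in p1 alone (612, 377 and 916 against 131 to 286 in the other 6 libraries). Rdh10, which makes retinal, fell in pM (-2.04 ± 0.27 against p1, adjusted p = 0.00047). Cyp26a1, which degrades RA, was higher in pM than in p1 (1.38 ± 0.21, adjusted p = 0.0011). Its replicate 1 library was the highest in each domain (998, 1583 and 1602), and the domains overlapped. Of 18 FGF-response genes, 3 were lower in pM than in p1 and none was higher, beside 8.19% lower and 7.05% higher over all tested genes.

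Cell cycle genes differed by phase and by small amounts. Of 26 S phase genes, 8 were lower and 1 higher in pM than in p1, with a median of -0.26. Gins2, part of the replicative helicase, had 5646, 6662 and 6255 in p1 and 3176, 3857 and 3839 in pM (-0.77 ± 0.12, adjusted p = 0.0013). E2f1, a driver of S phase entry, was the 1 that was higher (0.80 ± 0.19, adjusted p = 0.016). Of 29 G2 and M phase genes, 11 were higher and none lower in pM than in p1, with a median of 0.18. Ube2c, an ubiquitin-conjugating enzyme of mitotic exit, had 4508, 5237 and 4462 in p1, 5573, 6624 and 6917 in p2, and 6225, 7730 and 7205 in pM. Ccnd1, a G1 cyclin, was lower in pM than in p1 (-0.42 ± 0.08, adjusted p = 0.0064) and Ccnd2 was higher (0.49 ± 0.10, adjusted p = 0.0078), as was the inhibitor Cdkn1a (0.39 ± 0.09, adjusted p = 0.012).

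**Figure D3:**
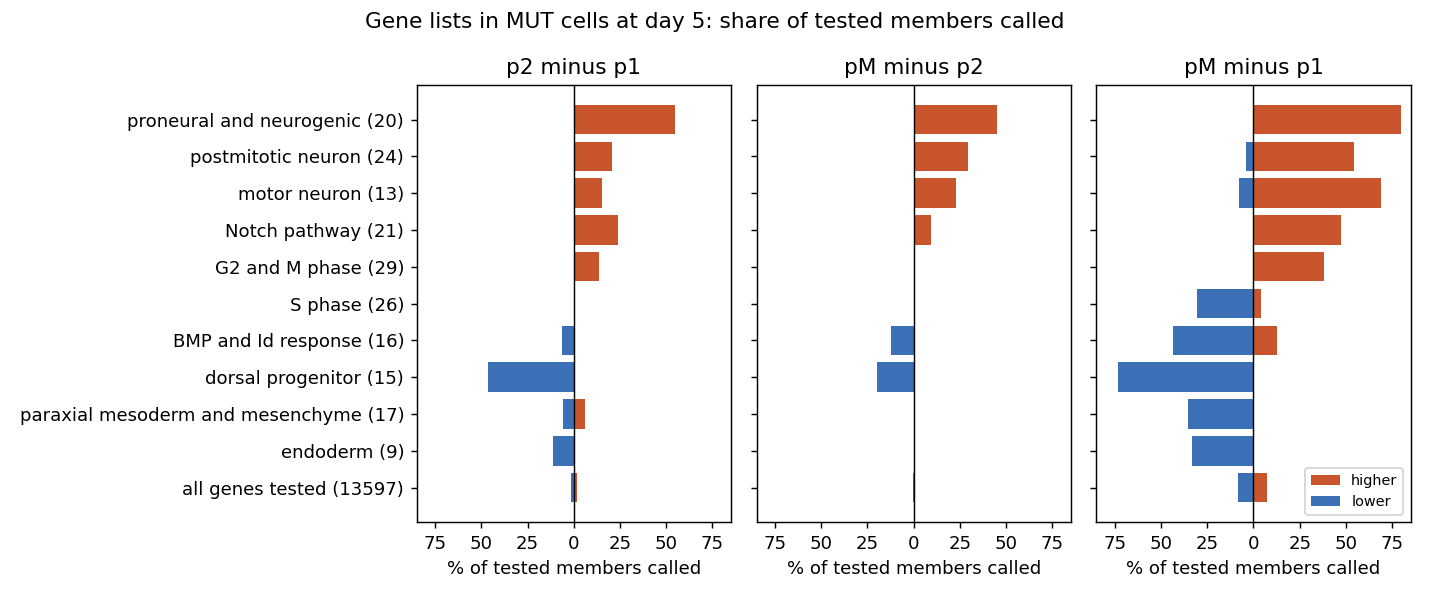
Share of tested members (in %) called higher (right) or lower (left) in each contrast of the MUT day 5 domains, for 10 gene lists and all genes tested, with the number tested in brackets. Neurogenic, neuronal, motor neuron and Notch lists lie to the right and the dorsal list to the left, and the bars for all genes are short.

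Further single genes marked each boundary. Mobp, a myelin protein gene, had 241, 384 and 364 in pM and at most 15.1 elsewhere. Syt13, a synaptotagmin, was likewise higher in pM (4.54 ± 0.49 above p2, adjusted p = 0.00074). Sstr2, a somatostatin receptor, had 4.07 to 12.5 in p1, 80.3, 290.4 and 277 in p2, and 464, 403 and 488 in pM. Pcdh8, a protocadherin, was called at both steps in opposite directions: 341, 324 and 321 in p1, 667.5, 946 and 1395 in p2, and 229, 259.7 and 453 in pM (1.54 ± 0.21, adjusted p = 0.0025, and -1.67 ± 0.21, adjusted p = 0.0017). Genes low in pM included Rab30, a Golgi GTPase (182, 233 and 206 in p2 against 25.0, 10.0 and 30.6), Has2, a hyaluronan synthase (273, 441 and 309 against 95.4, 80.2 and 76.6), and Fat4, an atypical cadherin (148, 160.2 and 121 against 27.6, 56.5 and 37.2). Duxbl2 belongs to a family of near-identical copies and was at 0, 76.7 and 0 in p1, so its call is uncertain. Msx1os, an antisense transcript beside Msx1, was called lower in p2 than in p1 (adjusted p = 0.0042), but the strand of the counting is not given, so its reads cannot be told from those of Msx1.

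Of 12 early timing genes, 3 were higher and 1 lower in pM than in p1, beside 7.05% higher and 8.19% lower over all tested genes. Lin28a, an RNA-binding protein of early progenitors, was the lower one (-0.60 ± 0.11, adjusted p = 0.0039), and Nr6a1, Igf2bp1 and Dnmt3a were higher by 0.50 or less. Of 27 tested Hox genes, 4 were higher and 3 lower in pM than in p1, beside the same 7.05% and 8.19% over all tested genes. Hoxa7 rose (512, 410 and 370 in p1, 1052, 811 and 1099.8 in pM; 1.20 ± 0.15, adjusted p = 0.00029). Hoxa6 had 7.33, 7.14 and 6.68 in p1 and 35.7, 39.2 and 26.3 in pM (2.09 ± 0.65, adjusted p = 0.049). Hoxd1 went the other way, with 129, 99.9 and 172 in p1 and 15.2, 22.8 and 52.5 in pM (-2.26 ± 0.50, adjusted p = 0.010). Cdx2, a caudal factor that acts on Hox genes, had 0 to 0.892 in p1 and 130, 80.2 and 15.3 in pM (5.50 ± 0.81, adjusted p = 0.00099). Sox9, a factor of progenitors that later become glia, had 611, 293 and 466 in p1, 1211, 513 and 1056 in p2, and 1558, 969 and 1227.5 in pM (pM minus p1 1.49 ± 0.15, adjusted p = 5e-05). The NFI genes were low in every domain. Nfia had 15.2 to 23.4 in p1, 32.6 to 48.8 in p2 and 27.6 to 46.5 in pM and was not called (p2 minus p1 1.05 ± 0.49, adjusted p = 0.25). Nfib and Nfix did not pass the filter and reached at most 11.8 and 7.57. The WT day 5 means of Nfia were 23.1, 20.1 and 23.8.

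The question whether MUT domains differed from each other in another way than WT domains was asked with the interaction over 9 MUT and 8 WT libraries of day 5 (14087 genes). In limma no gene was called for p2 minus p1, pM minus p2 or pM minus p1 (0% each). Of the 14087 genes, 674, 588 and 744 had an unadjusted p under 0.05, which a share of 0.05 would have with no true difference. The smallest adjusted p-values were 0.24 for Grb10, a growth factor receptor adaptor, in p2 minus p1, and 0.95 and 0.12 for Ism1, a secreted protein, in the other 2 contrasts. Without WT p2 replicate 3, 1 gene was called in each of the 3. On the recovered reads edgeR also called 0 in each contrast, with 584, 531 and 719 genes at an unadjusted p under 0.05, whereas DESeq2 called 17, 39 and 39. The genes DESeq2 called were of low level, with a median mean of 4.09, 4.13 and 5.19 normalised counts against 383 over the genes tested, and none of the 42 domain, patterning and neurogenic genes examined was among them. The unadjusted 95% interval of the difference reached 0.66, 0.71 and 0.71 (log2) to either side at the median gene. For Dbx1, pM minus p1 differed between MUT and WT by -0.09 (interval -0.73 to 0.55). For Olig2 the difference was 1.35 (-0.53 to 3.23), and for Isl1 -0.85 (-2.13 to 0.43). For Neurod4, with pM minus p1 larger in MUT by 1.69 (0.48 to 2.91), the unadjusted p was 0.0098 and the adjusted p 0.93. Among the 42 genes, the unadjusted interval for pM minus p1 lay above 0 in 6 (Gata2, Lhx3, Lhx4, Pax6, Nkx6-1 and Neurod4) and below 0 in 2 (Dbx2 and Msx1), and the smallest adjusted p was 0.93. For p2 minus p1 these counts were 1 and 3, and for pM minus p2 2 and 0. Over all 14087 genes, 744, 674 and 588 had an unadjusted p under 0.05 in these contrasts, in that order.

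The WT libraries share no sample with the MUT libraries, so the direction in them is a separate measurement. Of the 958 genes called higher in MUT pM than p1, 910 (95.0%) had the same sign in WT, and of the 1114 lower, 1046 (93.9%), against 70.7% of all 13597 genes. For p2 against p1 the shares were 98.7% of the higher and 92.8% of the lower genes (67.6% of all), and for pM against p2 99.0% and 100% (61.3% of all). The median of genes called at least 2-fold in pM against p1 was 1.92 in size in MUT and 1.48 in WT. Those genes were chosen on their MUT values, so the smaller WT size is given as a description. Dbx1 had WT means of 5692, 804 and 188 in p1, p2 and pM, and Olig2 had 17.0, 61.4 and 1702.

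**Figure D4:**
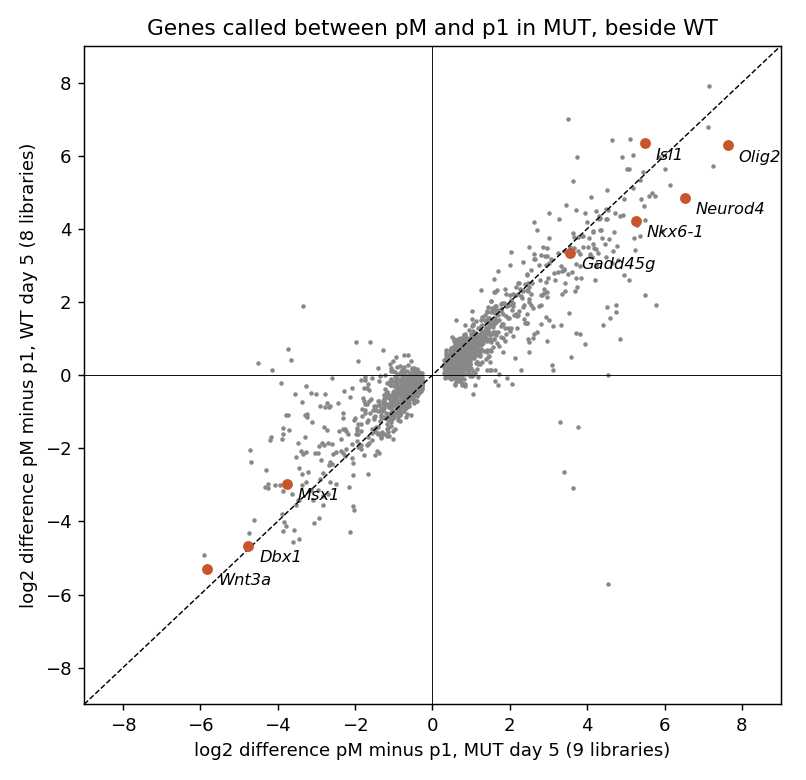
Log2 difference pM minus p1 at day 5 in MUT (x axis, 9 libraries) and WT (y axis, 8 libraries) for the genes called in MUT, 1 point for each gene, with the line of equal differences dashed. Most points lie in the quadrants of equal sign, and Dbx1, Wnt3a and Gadd45g lie close to the line.

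The interaction of day with domain in MUT asked which domain differences changed between day 5 and day 7. Of the day 7 libraries, the 3 of replicate 3 stood apart: ribosomal-protein genes held 16.4 to 19.1% of their normalised counts, against 7.91 to 9.21% in the other 6, and their normalised counts summed to 34.6 to 40.2 M against 20.3 to 22.1 M. The interaction over 18 libraries (14342 genes) called 195 genes for pM minus p1 (1.36%), of which 45 were positive (0.314%) and 150 negative (1.05%). It called 39 for pM minus p2 (0.272%), 6 of them positive (0.0418%) and 33 negative (0.23%), and 15 for p2 minus p1 (0.105%), 3 positive (0.0209%) and 12 negative (0.0837%). Without the 3 day 7 libraries of replicate 3 the counts were 152, 16 and 15 in that order. These counts rest on day 5 libraries used above, so the day 5 sizes of the called genes are a description. Among the 150 negative genes, 137 were higher in pM than in p1 at day 5 and 53 at day 7. Of 20 neurogenic genes, 12 were called negative for pM minus p1 and none positive, and the list median went from 2.49 at day 5 to 0.64 at day 7. Gadd45g had 9097, 5930.3 and 6611 in p1 at day 7, up from 819.6 to 1125 at day 5, while pM held 10028, 9226 and 12232 (interaction -3.001 ± 0.20, adjusted p = 4.5e-07). Neurod4 went in p1 from 40.1 to 58.9 at day 5 to 1315, 1157 and 890.5 at day 7, with 8049.8, 6997 and 3988 in pM (-4.07 ± 0.38, adjusted p = 1.7e-05). Dll1 had 1048, 1053 and 423 in p1 and 1487, 1771 and 714 in pM at day 7 (-2.20 ± 0.24, adjusted p = 8.4e-05).

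Some differences turned round. Crabp1, high in pM at day 5, was at day 7 the lowest there, with 8826, 9577 and 15380.2 in pM against 26149, 25366 and 67261 in p1 (pM minus p1 interaction -3.23 ± 0.22, adjusted p = 4.5e-07). Replicate 3 held the highest Crabp1 value of every domain at day 7, as it did for Tmsb4x, an actin-binding peptide (184858 in p1, 140997 in p2 and 276644 in pM, against 36251 to 80752 in the other 6). Without the 3 replicate 3 libraries of day 7 the Crabp1 interaction was -3.01 (adjusted p = 1.6e-06). Ppp1r17, a phosphatase inhibitor, had 1.67 to 5.35 in p1 and 201 to 416 in pM at day 5, and 430.2 to 929 in p1 and 113 to 235 in pM at day 7 (-8.06 ± 0.65, adjusted p = 3.8e-06). For Ddc, an aromatic amino acid decarboxylase, the fitted pM minus p1 difference did not turn round: it was positive on both days and widened. Its pM level went from 178 ± 35 (SD, n = 3) at day 5 to 1417, 1581 and 2011 at day 7. At day 7 p1 held 209 to 260.5 (interaction 2.24 ± 0.32, adjusted p = 0.00071). Foxn4 had 305, 504 and 259 in p2 at day 7, above all p1 and pM libraries (8.50 to 70.5). Its pM minus p1 difference changed by -4.97 ± 1.18 (adjusted p = 0.047), whereas the change in pM minus p2 did not pass (-3.98 ± 1.18, adjusted p = 0.29). Vsx1 was at 297, 377 and 607 in p2 at day 7 and at most 22.9 elsewhere, with no interaction called. For Olig2 and Isl1 no interaction was called (pM minus p1 -0.26 ± 1.14 and -0.14 ± 0.40, adjusted p = 0.95 and 0.93).

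**Figure D5:**
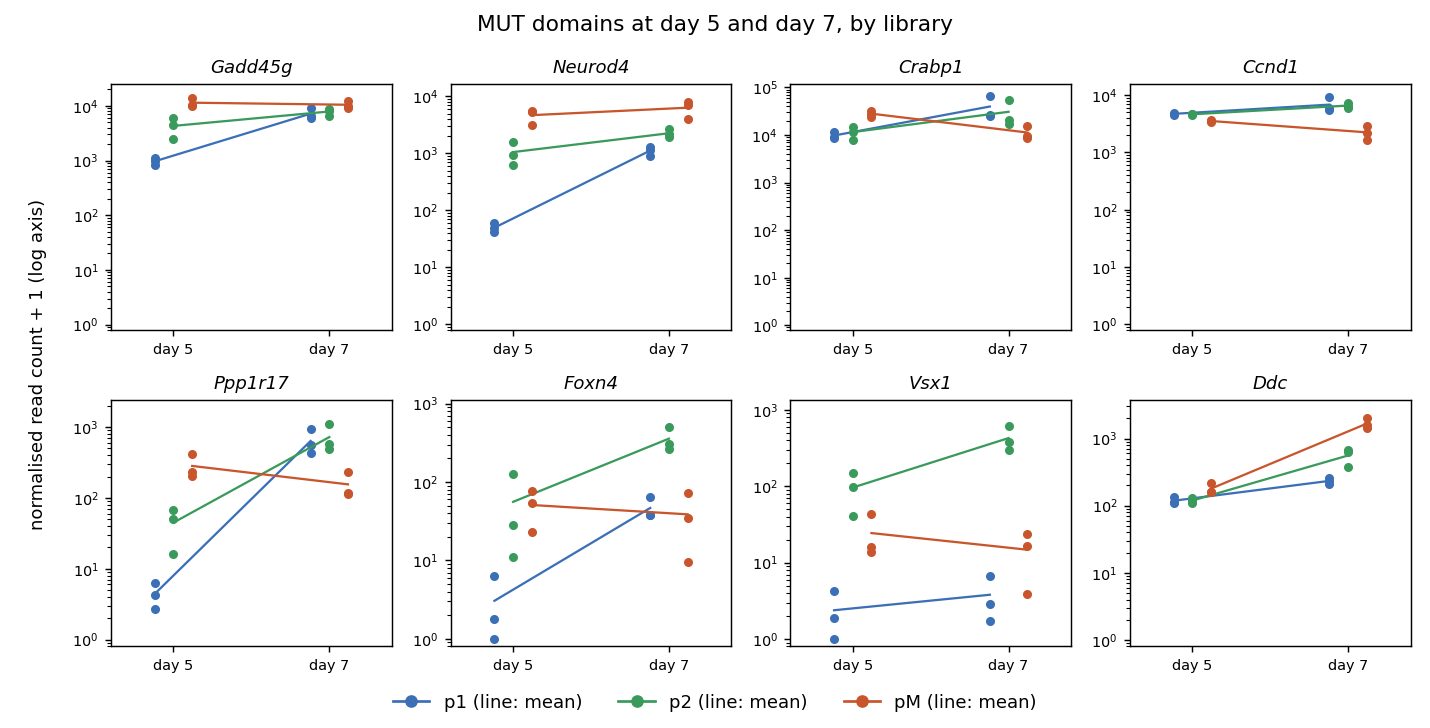
Normalised read count + 1 (log axis) of 8 genes in the MUT libraries of day 5 and day 7, coloured by domain, with 1 point for each library and lines joining the means. Gadd45g and Neurod4 of p1 rise towards pM, Crabp1 and Ppp1r17 change order, Foxn4 and Vsx1 are highest in p2 at day 7, and Ddc rises most in pM.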

How the data were processed

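Polyadenylated RNA of 9 sorted MUT day 5 populations was analysed, with 8 WT day 5 and 9 MUT day 7 libraries beside them. Per the submitters' processing notes, the authors used DESeq2 and the mm10 build. No aligner or annotation is named: these are not given in the sources used here. Each gene of the deposited table has a signal, the read count divided by a size factor: dividing by the value of 1 read gave whole numbers within 0.01 for 100% of values in these libraries, so reads were recovered for edgeR and DESeq2 as alternatives. The table has 24410 genes, and a gene was tested if it reached 10 in 2 or more of the libraries fitted. The main test was limma 3.58.1 (R 4.3.3) with a variance trend on log2(value + 1), domain means and replicate number, two-sided, adjusted by Benjamini-Hochberg. Interactions used replicate number within genotype or day. The other tools were edgeR 4.0.16 and DESeq2 1.42.0. On simulated data for pM minus p1 (13262 genes), the test found 55% of genes changed 2-fold and 99% of those changed 4-fold. The simulated spread was assumed and not estimated from these libraries, and changed genes were drawn only from those of higher mean. These shares therefore do not give the recovery in the real data or among genes of low level. Counting error grows in p2 replicate 2, which has the fewest reads.

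The members and gene lists were chosen with earlier results of these data known. Named genes are the 8 higher and 8 lower genes of largest difference in each contrast, among called genes whose higher domain averaged 50 or more and whose libraries did not overlap (gene models, clones and pseudogenes passed over). To these come all tested domain and patterning genes, up to 4 called members of each other list, 5 genes in each direction of each interaction, and Nfia, Nfib and Nfix. Some genes under this rule are not reported here. Further members of lists are named in the text after their values were seen: Ptch1, Gli1, Gli3, Hhip, Boc, Shh, Pax7, Zic4, Pou5f1, Nanog, Notch1, Bmp4, Id1, Nog, Hoxa6, Cyp26a1, Gata2, and the day 7 values of Dll1, as well as Grb10 and Ism1. Promoter sequences are from RefSeq, and 10241 of 13597 tested genes matched by symbol.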

Additional observations from a re-analysis of the deposited data

Results flagged for a closer look

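These results were listed because a domain difference of MUT cells at day 7 differed from the one at day 5 in the interaction test, and each value is the log2 difference at day 7 minus that at day 5. Groups of 3 libraries were not searched for outlying samples. For p2 minus p1 the values were 6.05 for Dnajc22, 2.25 for Alpl, 1.05 for Lgals1, -1.93 for Gadd45g, -1.44 for Tmsb4x, -3.31 for Neurod4, -2.84 for Prmt8 and -1.26 for Slc31a2. Dnajc22 was at 0 in all 3 day 7 p1 libraries, so its value is no measured fold, and its call was lost with a pseudocount of 8 (adjusted p = 0.065). For pM minus p2 they were 1.60 for Snx18, 1.17 for Ralgps2, 1.17 for Ndnl2, 0.72 for Abracl, 0.72 for Tpd52, -2.61 for Crabp1, -1.20 for Ccnd1, -4.12 for Sst, -2.29 for Plk3 and -5.03 for Ppp1r17. For pM minus p1 they were 1.79 for Snx18, 1.32 for Ndnl2, 5.29 for Sema3d, 2.24 for Ddc, -3.23 for Crabp1, -3.001 for Gadd45g, -8.06 for Ppp1r17, -3.81 for Prmt8 and -5.08 for Chrna3.

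The day 7 replicate 3 libraries held the highest values of every domain for Lgals1 (8976, 8901 and 6916 in p1, p2 and pM, against 1761 to 3053 in the other 6). Without these 3 libraries the p2 minus p1 value of Lgals1 was 1.11 (adjusted p = 0.045), and without the p2 one alone 1.09 (adjusted p = 0.052). Without the 3, every gene listed here other than Abracl (adjusted p = 0.13) and Tpd52 (adjusted p = 0.13) was still called. Abracl and Tpd52 were also lost without the p2 library alone (adjusted p = 0.099 and 0.11) or the pM library alone (adjusted p = 0.094 and 0.14), and Dnajc22 and Alpl without the p2 one (adjusted p = 0.052 each). Sst, which encodes somatostatin, had 838 to 2267 in p1 and 204 to 353 in pM at day 7, against 10.5 ± 3.3 and 90.3 ± 32 (SD, n = 3) at day 5. Sema3d, a secreted guidance cue, was at 17.2 to 37.4 in p1 and 125 to 406 in pM at day 7.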

How the results depend on the processing

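No called value changed direction under the alternatives run. Of 9207 re-estimates of 434 gene results, 8148 kept their side of the threshold, 944 lost a call and 115 gained one. For the contrasts p2 minus p1, pM minus p2 and pM minus p1 of day 5, DESeq2 called 993, 432 and 2509 genes, and edgeR 418, 162 and 1944. For the changes from day 5 to day 7 in the same order, DESeq2 called 106, 170 and 467, and no filter on low values gave 6, 24 and 175. For MUT against WT, DESeq2 called 17, 39 and 39 and edgeR 0 in each. The cause of these differences was not tested. The fits above hold the replicate number as a term. With no replicate block the counts fell to 83, 51 and 700 at day 5, to 381 for the F test, and to 3, 5 and 41 for day 7 minus day 5. Whether the numbers pair the libraries is not settled: deviations of same-numbered libraries correlated at 0.0587 to 0.221 over 9 pairs and those of differently numbered libraries at -0.148 to 0.0366 over 18. Leaving out 1 library leaves fewer degrees of freedom and moved the day 5 counts widely: p2 minus p1 ranged from 83 (without p1 replicate 3) to 1234 (without p2 replicate 2), pM minus p2 from 40 (without pM replicate 1) to 292 (without p2 replicate 3), pM minus p1 from 629 (without pM replicate 1) to 3046 (without p2 replicate 2), and the F test from 429 to 2608. Other libraries that moved p2 minus p1 by over 1.5 times were p1 replicates 1 (141) and 2 (145), p2 replicates 1 (226) and 3 (177) and pM replicate 1 (186). For pM minus p2 they were p2 replicate 1 (51) and pM replicate 2 (52), and for pM minus p1 they were p1 replicates 1 (959), 2 (1297) and 3 (715) and pM replicate 2 (944). For the F test they were p1 replicates 1 (568), 2 (704) and 3 (432), p2 replicate 3 (2190) and pM replicate 2 (753). Without replicate 1 of every domain the counts were 60, 13, 288 and 169 for the F test. Without replicate 3 of every domain p2 minus p1 gave 93, and without replicate 2 pM minus p2 gave 70. In edgeR without p2 replicate 2, an alternative chosen after seeing the data, p2 minus p1 gave 1053 and the F test 2268. Without the 3 replicate 3 libraries of day 7, also chosen after seeing the data, pM minus p2 gave 16 for day 7 minus day 5, with other counts within 1.5 times. MUT against WT ranged from 0 to 1 in each contrast, and day 7 minus day 5 from 6 to 19, 15 to 61 and 113 to 242. Depth limits p2 replicate 2 most, where 1 read is worth 2.50 normalised counts.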

Other observations

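Adhesion and axon guidance genes held calls in both directions between pM and p1. Of 30 adhesion genes tested, 6 were higher in p2 than in p1 and none lower, while between pM and p1 6 were higher and 4 lower. The cell adhesion molecule Ncam1 had 747, 586 and 1047 normalised counts in p1, 1122, 1169 and 1468 in p2, and 1603, 1588 and 2202 in pM. It was 0.69 ± 0.12 higher in p2 than in p1 (log2, adjusted p = 0.012 in limma). Of 28 axon guidance genes, 7 were higher and 5 lower in pM than in p1, and the neuropilins, co-receptors for semaphorins, moved in opposite directions. Nrp2 had 262, 244 and 249 in p1 and 550.2, 621 and 547 in pM (1.18 ± 0.18, adjusted p = 0.0013), while Nrp1 had 570.3, 575 and 602 in p1 and 229, 228 and 359 in pM (-1.13 ± 0.17, adjusted p = 0.0013). Sema6a, a transmembrane semaphorin, was higher in p2 than in p1 (1.36 ± 0.19, adjusted p = 0.0031).

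Slc2a1, a glucose transporter, had 22551, 17157.5 and 18126 in p1, 33664, 27483 and 29409 in p2, and 41531, 33476.5 and 30167 in pM. It rose between p1 and p2 (0.65 ± 0.08, adjusted p = 0.0015), and its p2 and pM libraries overlapped. The glycolytic enzyme Eno1 was slightly lower in pM than in p1 (-0.33 ± 0.09, adjusted p = 0.023), and of the 16 hypoxia and glycolysis genes tested, 3 were higher and 2 lower. Over all tested genes, 7.05% were higher and 8.19% lower in that contrast. Atf3, a stress-induced factor, had 1718, 1273 and 1491.5 in p1, 1149, 794 and 971 in p2, and 1008, 605 and 854 in pM (p2 minus p1 -0.63 ± 0.12, adjusted p = 0.014). Of 17 stress genes, 3 were lower in p2 than in p1 and 4 lower in pM than in p1, and none was higher. Ednrb, the endothelin B receptor, was lower in pM than in p2 (-0.86 ± 0.10, adjusted p = 0.0011), with 2016, 2541 and 2265 in p2 and 1063, 1289 and 1422 in pM. Ret, the receptor for GDNF-family ligands, rose there (1.48 ± 0.24, adjusted p = 0.0097), with 458, 150.2 and 313 in p2 and 834, 735 and 769.9 in pM.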
